A study of Rattus norvegicus with 16 samples.

Results

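The 8 genes described here mark monocytes and interstitial macrophages of the lung or belong to their complement output: C1qa, C1qb, C1qc, Folr2, Cd163, Csf1r, Cx3cr1 and Ccr2. They were taken by gene symbol from the deposited array table, each from a probe set (the group of array probes that reports a gene) annotated to that symbol alone. All 8 were measured, among 14506 genes in all, and each had 1 probe set, so no choice between probe sets was needed. They were examined in the right lungs of 16 male Sprague-Dawley rats of 250 to 300 g, 4 rats per group and 1 array per rat. Normoxia rats were controls given neither hypoxia nor a hormone or antagonist. Hypoxia rats spent 2 weeks under hypobaric hypoxia at 362 mmHg, equivalent to 10% inspired oxygen at sea level. Hypoxia with estradiol rats had the same exposure and carried subcutaneous pumps that released 17β-estradiol at 75 µg/kg/day for 3 weeks, beginning before the hypoxia. Hypoxia with estradiol and fulvestrant rats had in addition daily injections of fulvestrant at 3 mg/kg/day, a nonselective antagonist of the estrogen receptors. The labels give no age and do not say whether rats without estradiol carried empty pumps. The series asks whether estrogen receptors mediate an effect of estradiol on the hypoxic lung, so the comparisons were hypoxia against normoxia, estradiol added to hypoxia, and fulvestrant added to estradiol.

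C1q is the recognition molecule of the classical complement pathway. It is assembled from A, B and C chains, each encoded by its own gene, and it binds immune complexes, dying cells and C-reactive protein. C1q then engages the proteases C1r and C1s, which cleave C4 and C2. In most tissues macrophages are the main source of C1q, whereas most other complement proteins come from the liver. Interstitial macrophages of the lung lie in the tissue around vessels and airways, unlike alveolar macrophages, which lie in the air space. CSF1R is the growth factor receptor on which most macrophages depend. CCR2 draws classical monocytes out of the bone marrow and into tissue, and CX3CR1, the fractalkine receptor, is carried by patrolling monocytes, by many interstitial macrophages and by some natural killer and T cells.

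The genes C1qb, C1qc and C1qa lie next to each other in that order in the RefSeq table of the rat, with 0 other genes between them. Because the 3 chains moved together, the 250 bases before the RefSeq start of C1qa and C1qb are shown, with the Cx3cr1 sequence because that gene passed in the estradiol and fulvestrant comparisons. Capitals mark matches to the motifs searched on both strands, which in these sequences are GAGGAA, the core bound by the myeloid factor PU.1, and TGCTGA, the core bound by MAF factors. The other motifs were the hypoxia response core as ACGTG or GCGTG, the AP-1 site TGANTCA, the CEBP site, the paired IRF site and the palindromic estrogen response element. C1qa lies at chr5:154419934-154420183, C1qb at chr5:154407828-154408077 and Cx3cr1 at chr8:128677067-128677316, all on the minus strand of GRCr8.
C1qa: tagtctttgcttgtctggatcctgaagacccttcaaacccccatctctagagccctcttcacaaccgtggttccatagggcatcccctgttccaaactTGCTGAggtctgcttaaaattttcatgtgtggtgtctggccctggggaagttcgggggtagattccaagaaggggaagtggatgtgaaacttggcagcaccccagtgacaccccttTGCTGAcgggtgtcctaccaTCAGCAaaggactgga
C1qb: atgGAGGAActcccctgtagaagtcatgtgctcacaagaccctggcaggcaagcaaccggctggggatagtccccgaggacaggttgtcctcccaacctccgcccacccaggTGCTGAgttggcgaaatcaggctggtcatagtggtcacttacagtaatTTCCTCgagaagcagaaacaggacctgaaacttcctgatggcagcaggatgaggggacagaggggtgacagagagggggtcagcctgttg
Cx3cr1: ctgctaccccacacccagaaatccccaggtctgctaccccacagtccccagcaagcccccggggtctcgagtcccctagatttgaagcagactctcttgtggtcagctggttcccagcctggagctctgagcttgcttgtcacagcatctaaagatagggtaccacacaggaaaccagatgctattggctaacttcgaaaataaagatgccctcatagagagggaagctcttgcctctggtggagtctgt
The C1qa sequence held 3 TGCTGA matches, and the C1qb sequence held 1 TGCTGA match and 2 GAGGAA matches. Among the 33469 rat promoters of the same length, 15.1% held TGCTGA and 23.3% held GAGGAA. The Cx3cr1 sequence held no match to any of the 8 motifs, including the estrogen response element, which 0.0239% of all promoters held. RefSeq promoter entries were found for 7 of the 8 genes, C1qc being the exception. Of the others, Folr2 held 1 TGCTGA match, Csf1r held 2 GAGGAA matches, Ccr2 held 1 CEBP match and Cd163 held no match. The CEBP site was held by 9.22% of promoters. The hypoxia response core appeared as GCGTG in Ccr2 and as both ACGTG and GCGTG in Csf1r. Those forms were held by 16.6% (ACGTG) and 25.9% (GCGTG) of promoters. These matches describe letters in the sequence and say nothing of binding.

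All values are log2 RMA signals. RMA, a robust multi-array average, puts all arrays on 1 scale and reduces the probes of a set to a single value, and levels of different probe sets cannot be set against each other. Of the tissue markers, surfactant protein C (Sftpc) and Ager, of the alveolar epithelium, had mean signals of 13.92 and 13.53, and the pan-leukocyte gene Ptprc had a mean of 11.25. Array medians were between 7.69 and 7.77. Estradiol replicates 2 and 3 stood apart on the second principal component, at -25.4 and -22.3 against -5.18 to 7.85 for the other arrays. Normoxia replicate 4 is titled normoxia but its treatment field reads hypoxia. On the first component it lay at -19.7, within the -20.8 to -12.0 of the normoxia arrays and apart from the -2.05 to 16.3 of the hypoxic ones. It was kept as normoxia, and results are also given with it left out or counted as hypoxia where that changes them. Neither was done for fulvestrant against estradiol, so the calls of that comparison were not checked in this way. In whole lung, more cells of a type and more RNA per cell cannot be told apart.

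Hypoxia raised the 3 C1q chain genes by about the same amount. C1qa, C1qb and C1qc were 1.51-, 1.58- and 1.59-fold higher in hypoxia than in normoxia, and Folr2, a folate receptor of resident tissue macrophages, was 1.55-fold higher. Csf1r, Cx3cr1, Ccr2 and Cd163, a scavenger receptor for haemoglobin bound to haptoglobin, did not pass. With limma and Benjamini-Hochberg adjustment over all genes, 4 of the 8 rose and 0 fell, beside 5.63% of all genes called, 3.21% higher and 2.43% lower. The genes were listed with results of this comparison known, so that count is a description. The median of the 8 log2 differences was 0.30, against 0.03 over all genes.

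C1qa had log2 signals of 9.23, 9.42, 9.68 and 9.76 in the normoxia lungs and 10.12, 10.19, 9.96 and 10.21 in the hypoxia lungs. Every hypoxia lung lay above every normoxia lung, and the normoxia lungs were the more spread out of the groups. The difference was 0.60 (SE 0.11, limma adjusted p = 0.00316).

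C1qb had log2 signals of 9.17, 9.12, 9.39 and 9.12 in normoxia and 9.87, 9.93, 9.66 and 9.99 in hypoxia. The groups did not overlap, and the lowest hypoxia lung was replicate 3, as it was for C1qa, C1qc and Folr2. The difference was 0.66 (SE 0.09, limma adjusted p = 0.000337). With normoxia replicate 4 counted as hypoxia C1qb no longer passed (0.49, adjusted p = 0.144), whereas C1qa and C1qc still did.

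C1qc had log2 signals of 9.11, 9.29, 9.54 and 9.58 in normoxia and 10.02, 10.07, 9.84 and 10.26 in hypoxia, again without overlap. The difference was 0.67 (SE 0.10, limma adjusted p = 0.00103). All 3 chain genes passed whichever of the 8 normoxia or hypoxia arrays was dropped.

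Folr2 had log2 signals of 9.08, 9.04, 9.17 and 8.92 in normoxia and 9.83, 9.67, 9.35 and 9.90 in hypoxia. The groups did not overlap, but hypoxia replicate 3 lay close to the normoxia lungs. The difference was 0.63 (SE 0.17, limma adjusted p = 0.0421). The call was lost in 7 of the 8 fits without 1 array, with adjusted p from 0.0525 (normoxia replicate 3 dropped) to 0.124 (hypoxia replicate 1 dropped), and it held only when hypoxia replicate 3 was dropped (0.0204, log2 difference 0.75). It was also lost over all probe sets (0.63, adjusted p = 0.0625) and once normoxia replicate 4 was moved to hypoxia (0.44, adjusted p = 0.344).

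**Figure D1:**
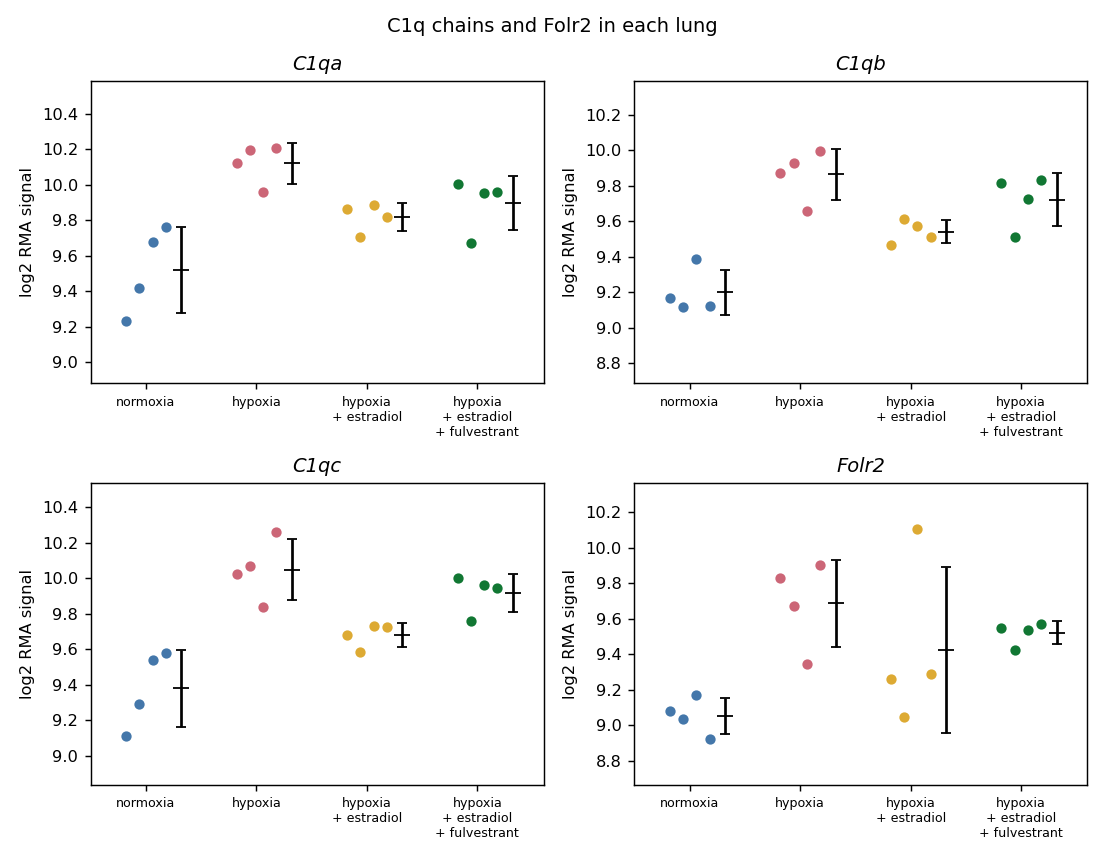
Log2 RMA signal (vertical axis, the same span in each panel, not starting at 0) of C1qa, C1qb, C1qc and Folr2 in the 4 groups (horizontal axis); each point is 1 lung, in order of replicate, and the bar is the group mean with its SD (n = 4). In each panel the 4 hypoxia lungs lie above the 4 normoxia lungs, and the C1q values of the estradiol lungs lie below those of the hypoxia lungs.

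The growth factor and chemokine receptors and Cd163 did not pass. Csf1r had log2 signals of 11.85, 11.92, 11.86 and 11.71 in normoxia and 11.68, 11.50, 11.64 and 11.69 in hypoxia. The hypoxia lungs were all lower, without overlap, by a log2 difference of -0.21 (SE 0.06), which did not pass (limma adjusted p = 0.0557). It did pass with quantile normalization applied again (adjusted p = 0.0156), without the dimmest 25% of genes (0.0410), with trend and robust moderation (0.0375) and without normoxia replicate 4 (0.0293). Counting Csf1r with the genes that rose, 5 of the 8 genes had groups that did not overlap, beside 12.1% of all genes.

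Ccr2 had log2 signals of 10.58, 10.72, 10.50 and 10.16 in normoxia and 10.18, 10.31, 9.76 and 10.07 in hypoxia, which overlap. The difference was -0.41 (SE 0.19, limma adjusted p = 0.248). Cx3cr1 gave the same group mean of 9.99 in normoxia (SD 0.19) and hypoxia (SD 0.15, n = 4 each), with a 95% interval of the log2 difference from -0.25 to 0.25. Cd163 gave 8.42 (SD 0.22) and 8.43 (SD 0.20, n = 4 each), with an interval from -0.32 to 0.33.

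**Figure D2:**
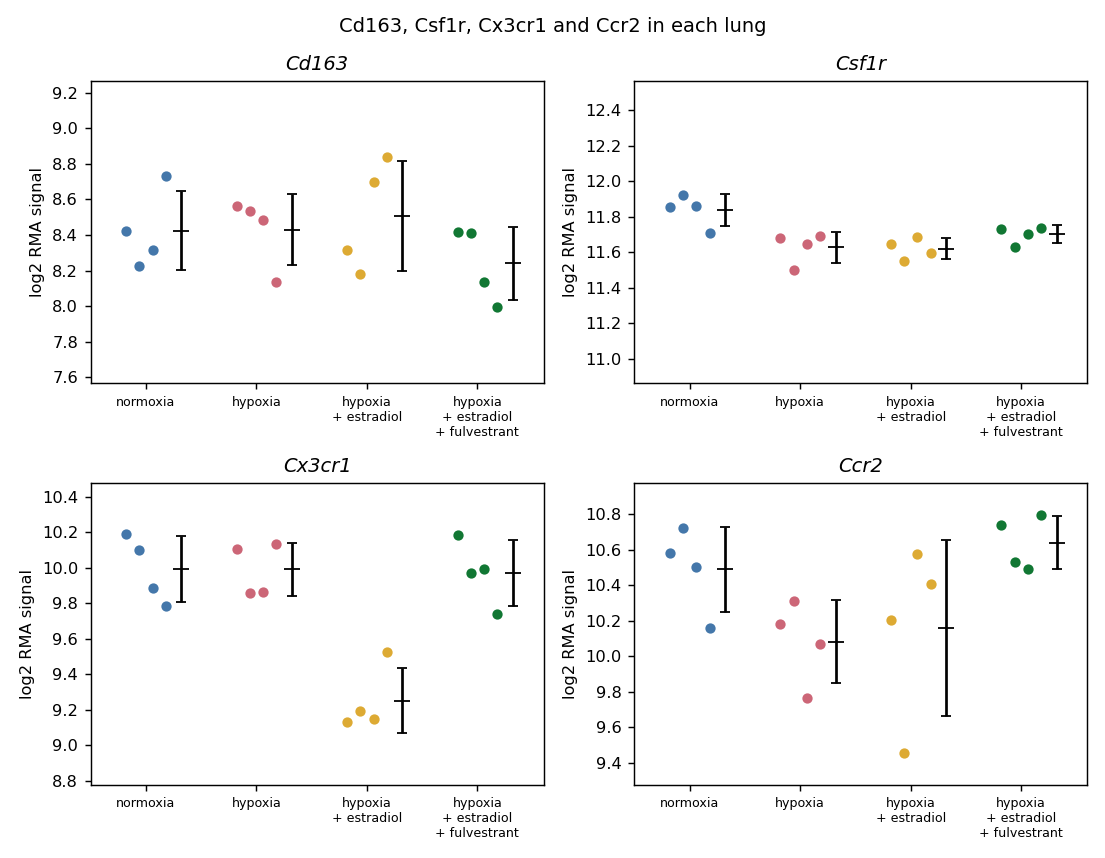
Log2 RMA signal (vertical axis, the same span in each panel, not starting at 0) of Cd163, Csf1r, Cx3cr1 and Ccr2 in the 4 groups (horizontal axis); each point is 1 lung, in order of replicate, and the bar is the group mean with its SD (n = 4). The 4 Cx3cr1 values with estradiol lie below all 12 others, while the groups of Cd163 overlap throughout.

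Other genes of the C1 complex rose with C1q in hypoxia. C1s and C1r, the proteases that C1q activates, rose by log2 0.80 (SE 0.16, limma adjusted p = 0.00698) and 0.35 (SE 0.08, adjusted p = 0.0226), and Serping1, the inhibitor that removes both proteases from C1q, rose by 0.30 (SE 0.07, adjusted p = 0.0194). C1s passed in each of the 8 fits without 1 array, C1r in 4 and Serping1 in 3 of them. Once normoxia replicate 4 was moved to hypoxia none of C1s, C1r and Serping1 passed (adjusted p = 0.107, 0.214 and 0.417). In the list of the classical and lectin pathways 2 of 11 measured genes rose and 0 fell, with a median of 0.10. The lectin pathway genes Mbl1, Mbl2, Masp1, Masp2, Fcna and Fcnb did not pass.

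Of 9 measured genes of C3, the alternative pathway and the membrane attack complex 1 rose, C6 (log2 2.69, SE 0.52, limma adjusted p = 0.00593), a part of that complex. C6 passed in each of the 8 fits without 1 array but not once normoxia replicate 4 was moved to hypoxia (2.06, adjusted p = 0.185). C3 itself differed by 0.22 (SE 0.19, adjusted p = 0.561). Of 19 receptors and regulators 1 rose, Serping1, and 0 fell. Vsig4, a complement receptor of resident macrophages, differed by 2.87 but with an SE of 0.90 (adjusted p = 0.0748). The medians of these lists were 0.17 and 0.11. C2, C4a, C4b, C5 and Cfb were not analysed here, so the direct substrates of C1s could not be described.

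**Figure D3:**
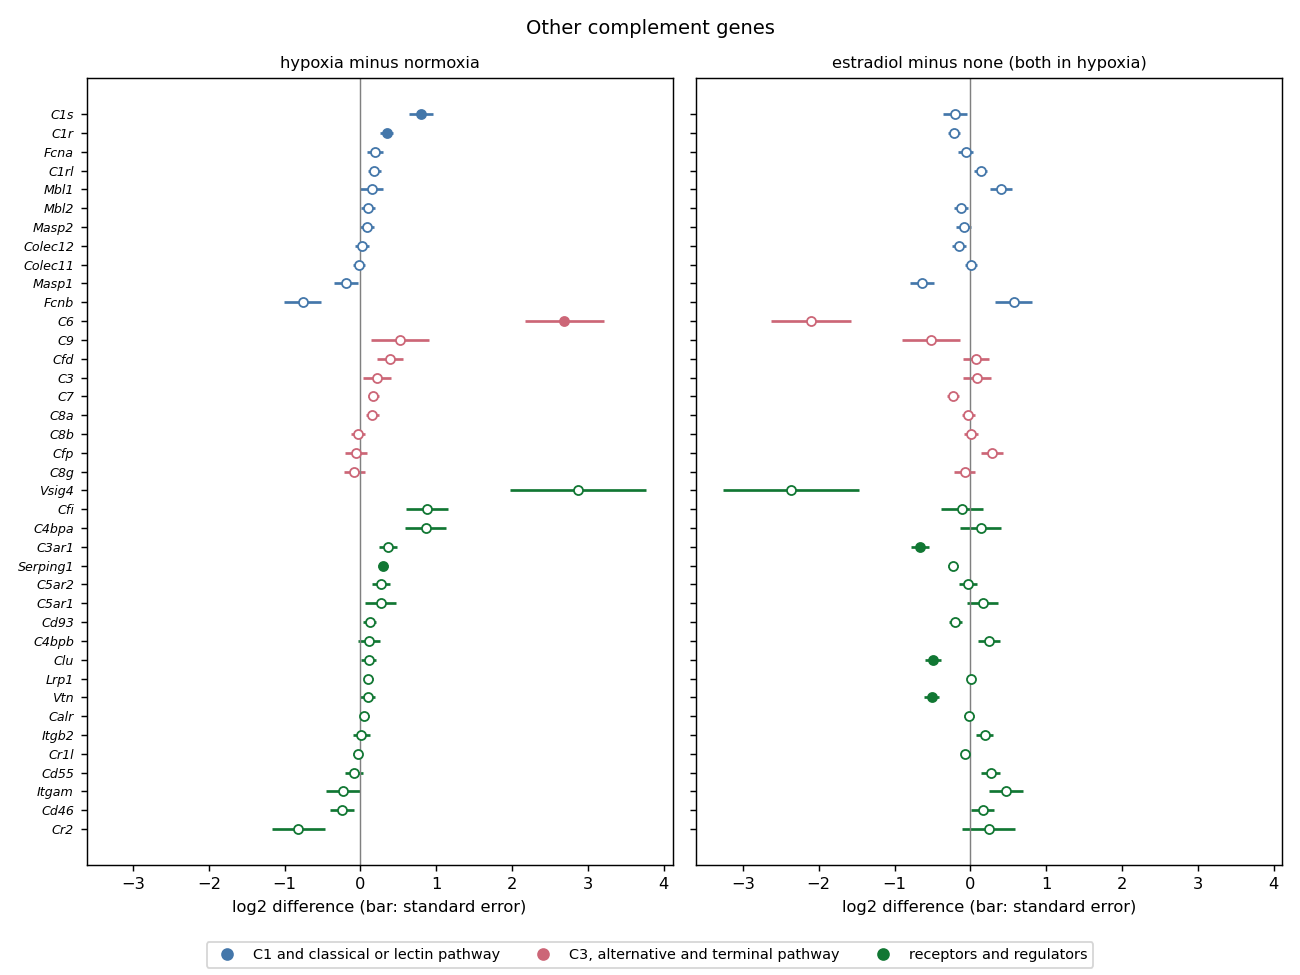
Log2 differences (horizontal axis) with standard errors of the other measured complement genes (vertical axis, coloured by list) for hypoxia minus normoxia (left) and estradiol minus none within hypoxia (right); filled points passed at an adjusted p of 0.05. On the left C1s, C1r, C6 and Serping1 passed as higher, and on the right C3ar1, Clu and Vtn passed as lower.

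Of the receptor ligands, those of CCR2 rose in hypoxia. Ccl2, the main CCR2 ligand, rose by log2 1.48 in hypoxia (SE 0.21, limma adjusted p = 0.000737). Ccl12, another CCR2 ligand, rose by 0.67 (SE 0.12, adjusted p = 0.00448). The Ccl12 signal was low, with means of 6.06 in normoxia and 6.72 in hypoxia, below the array medians of 7.69 to 7.77. Ccr2 itself was lower by a difference that did not pass. The CSF1R ligands Csf1 (0.18, adjusted p = 0.260) and Il34 (0.01, adjusted p = 0.974) and the CX3CR1 ligand Cx3cl1 (0.22, adjusted p = 0.306) did not pass. Maf, a transcription factor of macrophages, rose by 0.35 (SE 0.07, adjusted p = 0.00755). In all, 3 of the 14 genes of this list rose and 0 fell, and the median was 0.18. Ccl2, Ccl12 and Maf passed in each of the 8 fits without 1 array, and none of them passed once normoxia replicate 4 was moved to hypoxia (adjusted p = 0.107, 0.177 and 0.238).

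Of 24 further genes that mark monocytes or interstitial macrophages 0 rose and 4 fell, although the median was 0.17. Maf, which rose, also marks these cells but was counted with the receptor ligands. Lyve1, which marks perivascular macrophages and also lymphatic endothelium, fell by 2.23 on the log2 scale (SE 0.12, limma adjusted p = 3.45e-08). The monocyte gene Plac8 fell by 0.85 (SE 0.12, adjusted p = 0.000503), Spn, a sialoglycoprotein of patrolling monocytes and T cells, fell by 0.53 (SE 0.11, adjusted p = 0.0091), and Selenop fell by 0.25 (SE 0.07, adjusted p = 0.0463). With normoxia replicate 4 counted as hypoxia Lyve1 still passed (-1.87, adjusted p = 0.0438) and Plac8 (-0.56, adjusted p = 0.214), Spn (adjusted p = 0.179) and Selenop (adjusted p = 0.183) did not. Selenop passed in 1 of the 8 fits without 1 array, the other genes in all of them. Of 13 genes of haem and iron handling 2 rose, the haem-degrading enzyme Hmox1 (0.87, adjusted p = 0.0472) and the haem-binding protein gene Hebp1 (0.74, adjusted p = 0.00349). Hmox1 passed in 1 of the 8 fits without 1 array and Hebp1 in all of them. Of 5 folate receptor and transport genes 1 rose, the folate transporter Slc46a1 (0.31, adjusted p = 0.0414), which also passed in 1 of those 8 fits. With normoxia replicate 4 counted as hypoxia Hebp1 still passed (adjusted p = 0.0438), and Hmox1 (0.300) and Slc46a1 (0.316) did not.

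Other cell types moved in the same lungs. Of 13 measured markers of alveolar macrophages 6 rose and 0 fell in hypoxia, and their mean level above normoxia ran from 0.23 to 0.72 in the hypoxia lungs, 0.35 to 0.63 with estradiol and 0.26 to 0.35 with fulvestrant added. The mean of 12 monocyte and interstitial macrophage markers other than the 8 genes ran from 0.15 to 0.56, 0.05 to 0.53 and 0.23 to 0.34 in the same groups. Among 20 measured markers, the 8 genes included, 5 rose and 0 fell in hypoxia: the 3 C1q genes, Folr2 and Maf. The mean of the 24 further markers, which share genes with these 12, ran from -0.11 to 0.27, -0.06 to 0.34 and -0.003 to 0.08. Its normoxia range was -0.04 to 0.04. The mean of the 3 C1q genes was 0.64, 0.70, 0.45 and 0.79 above normoxia in the hypoxia lungs, and 0.30, 0.27, 0.36 and 0.32 in the estradiol lungs. In hypoxia replicate 3 the C1q mean and each of these macrophage list means were the lowest of the group. Erythroid markers, 5 genes of which 1 rose and 0 fell, had mean levels relative to normoxia of 2.09, 1.65, -0.06 and 1.84 in the hypoxia lungs, so that replicate 3 was the lowest there too. Of 4 B cell markers 0 rose and 2 fell, and their mean ran from -1.30 to -0.53 in the hypoxia lungs and from -0.40 to 0.47 in normoxia. The part of these cell types in the C1q result was not tested.

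**Figure D4:**
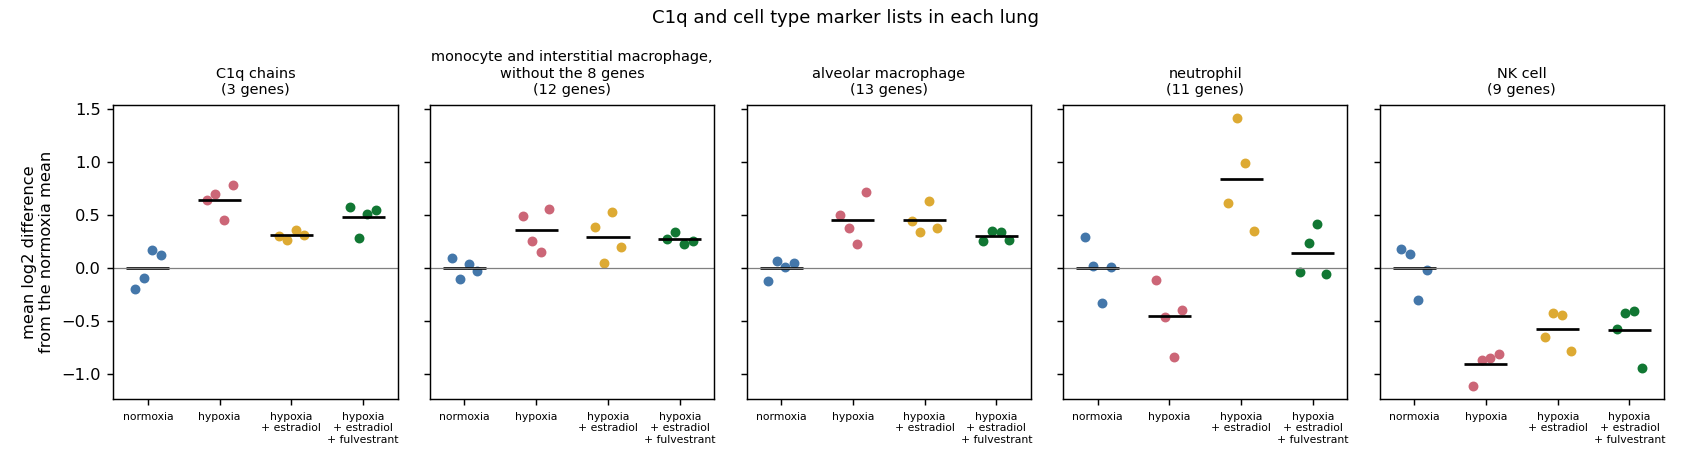
Mean log2 difference from the normoxia mean (vertical axis) over the 3 C1q genes and 4 lists of cell type markers, in the 4 groups (horizontal axis); each point is 1 lung and the line is the group mean. The C1q values of the estradiol lungs run from 0.27 to 0.36, below all hypoxia lungs, while their alveolar macrophage values, from 0.35 to 0.63, lie within the range of the hypoxia lungs.

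Estradiol under hypoxia lowered 1 of the 8 genes. Cx3cr1 was 1.67-fold lower in hypoxia with estradiol than in hypoxia, and its p ranked at place 5 among all genes. The 3 C1q genes were lower by 1.23- to 1.29-fold without passing. In this comparison 0 of the 8 genes rose and 1 fell, beside 0.772% of all genes called, 0.31% higher and 0.462% lower. The 8 genes were chosen with earlier results of these data known, so this count, that rank and the later counts are descriptions. The median of the 8 log2 differences was -0.28, against -0.02 over all genes.

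Cx3cr1 had log2 signals of 10.10, 9.86, 9.87 and 10.14 in hypoxia and 9.13, 9.20, 9.15 and 9.53 with estradiol. All 4 estradiol lungs lay below every other lung of the series, and replicate 4 was the nearest to them. The difference was -0.74 (SE 0.12, 95% interval -0.99 to -0.49, limma adjusted p = 0.0295). Without 1 array the difference ran from -0.83 to -0.69, and it passed in 3 of 8 such fits. The lost calls were those without hypoxia replicate 1, 2 or 4 or estradiol replicate 2 or 3 (adjusted p from 0.0545 to 0.0848), fits in which 3 to 7 genes passed in the whole table. When both estradiol arrays that stood apart, replicates 2 and 3, were dropped it was -0.66 (adjusted p = 0.218). The call was also lost over all probe sets (adjusted p = 0.0677), in the fit of these groups alone (0.0958) and once normoxia replicate 4 was moved to hypoxia (0.0654).

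Natural killer and T cells can also carry Cx3cr1. Of their markers, 0 of 9 natural killer cell genes passed in either direction, with a median log2 difference of 0.36 against hypoxia, and 1 of 9 T cell genes rose and 0 fell, with a median of 0.32. In hypoxia against normoxia all 9 natural killer cell genes and 6 of 9 T cell genes fell, while the group mean of Cx3cr1 was 9.99 in both. Neutrophil markers rose with estradiol, 7 of 11 genes, and their mean log2 level relative to the normoxia mean was 0.61, 1.41, 0.99 and 0.35 in the estradiol lungs, in order of replicate. Cx3cr1 was 9.13 and 9.53 in replicates 1 and 4, where that mean was lowest, and 9.20 and 9.15 in replicates 2 and 3. The part of natural killer cells, of T cells and of the neutrophil genes in the Cx3cr1 result was not tested.

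The C1q genes lay between their normoxia and hypoxia levels with estradiol. C1qa was 9.87, 9.71, 9.89 and 9.82 in the estradiol lungs, C1qb was 9.47, 9.61, 9.57 and 9.51, and C1qc was 9.68, 9.59, 9.73 and 9.72. For each chain the highest estradiol lung lay below the lowest hypoxia lung, and the SDs within the estradiol group were 0.08, 0.06 and 0.07 (n = 4). The log2 differences from hypoxia were -0.30 (SE 0.11, limma adjusted p = 0.190) for C1qa, -0.32 (SE 0.09, adjusted p = 0.0921) for C1qb and -0.37 (SE 0.10, adjusted p = 0.0989) for C1qc. With Cx3cr1, 4 of the 8 genes did not overlap between these groups, beside 6.65% of all genes. None of the 3 chains passed under any of 17 alternatives each.

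Folr2 was 9.26, 9.05, 10.11 and 9.29 with estradiol. Replicate 3 was the highest lung of all 16 for this gene, and the other 3 estradiol lungs lay below all 4 hypoxia lungs. The difference was -0.26 (SE 0.17, limma adjusted p = 0.484), and without estradiol replicate 3 it was -0.49 (adjusted p = 0.0997). Ccr2 was also spread, at 10.20, 9.45, 10.57 and 10.40, with the lowest value of all 16 lungs in replicate 2 (difference 0.08, adjusted p = 0.881). Csf1r (-0.01, 95% interval -0.14 to 0.12) and Cd163 (0.08, 95% interval -0.25 to 0.40) did not pass.

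Among the other complement genes, 3 regulators or receptors fell with estradiol and 0 rose, of 19. C3ar1, the receptor for the C3a fragment on macrophages and other myeloid cells, fell by 0.66 on the log2 scale (SE 0.12, limma adjusted p = 0.0362). Vtn and Clu, which encode the fluid-phase inhibitors of the membrane attack complex vitronectin and clusterin, fell by 0.51 (SE 0.10, adjusted p = 0.0362) and 0.49 (SE 0.10, adjusted p = 0.0405). C3ar1 and Vtn each passed in 3 of the 8 fits without 1 array and Clu in 2, and none of them passed once normoxia replicate 4 was moved to hypoxia (adjusted p = 0.147, 0.0857 and 0.0654). Of the classical and lectin list 0 of 11 passed, and of the C3 and terminal list 0 of 9. Masp1 (-0.63, adjusted p = 0.0737) and C6 (-2.10, adjusted p = 0.0730) had the smallest adjusted p in those lists.

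The macrophage mannose receptor gene Mrc1 moved opposite to Cx3cr1. It rose by log2 0.49 with estradiol (SE 0.09, limma adjusted p = 0.0362), the single call among the 24 other monocyte and interstitial macrophage markers. C3ar1, which fell, also marks these cells but was counted with the complement genes. Mrc1 is also strongly expressed by alveolar macrophages, of whose 13 markers 0 passed in this comparison (median -0.03). Of the ligand list 0 of 14 passed. The fractalkine gene Cx3cl1 was lower by a difference that did not pass (-0.45, adjusted p = 0.0806). The Mrc1 call held in 3 of the 8 fits without 1 array, and with normoxia replicate 4 counted as hypoxia it was lost (adjusted p = 0.0654).

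Fulvestrant added to estradiol raised 1 of the 8 genes, again Cx3cr1, which was 1.65-fold higher than with estradiol alone. In this comparison 1 of the 8 rose and 0 fell, beside 0.0483% of all genes called, 0.0207% higher and 0.0276% lower, which is 7 genes in the whole table. The median of the 8 log2 differences was 0.14, against 0.005 over all genes. This comparison and the preceding one share the estradiol lungs, so that lower values in those lungs enter both.

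Cx3cr1 was 10.19, 9.97, 9.99 and 9.74 in the fulvestrant lungs. All 4 lay above the 4 estradiol lungs. The normoxia lungs ran from 9.79 to 10.19 and the hypoxia lungs from 9.86 to 10.14. Fulvestrant replicate 4, at 9.74, lay below both ranges, and the other fulvestrant lungs lay within the normoxia range. The difference from estradiol was 0.72 (SE 0.12, 95% interval 0.47 to 0.97, limma adjusted p = 0.0403), and it passed in 2 of 8 fits without 1 array, with values from 0.65 to 0.81. Calls were lost without estradiol replicate 1, 2 or 3 or fulvestrant replicate 1, 2 or 3 (adjusted p from 0.0580 to 0.134), and without estradiol replicates 2 and 3 together (0.64, adjusted p = 0.270), over all probe sets (0.0798) and in the fit of these groups alone (0.140). Against hypoxia without estradiol the fulvestrant lungs differed by -0.02 (95% interval -0.27 to 0.23), and against normoxia by -0.02 (95% interval -0.27 to 0.23).

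Mrc1 was the mirror image, lower by log2 -0.57 with fulvestrant than with estradiol alone (SE 0.09, limma adjusted p = 0.0403), and it passed in 2 of the 8 fits without 1 array. It was among the 7 genes called, and the other 23 markers of its list did not pass. C3ar1 (0.62, adjusted p = 0.0593), Clu (0.40, adjusted p = 0.0950), Vtn (0.38, adjusted p = 0.102) and Cx3cl1 (0.49, adjusted p = 0.0793) were higher with fulvestrant without passing. Of the complement lists 0 of 11, 0 of 9 and 0 of 19 genes passed.

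The C1q genes were higher with fulvestrant than with estradiol alone, without passing. C1qa was 10.00, 9.67, 9.96 and 9.96 in the fulvestrant lungs, C1qb was 9.82, 9.51, 9.72 and 9.83, and C1qc was 10.00, 9.76, 9.96 and 9.95. Replicate 2 was the lowest for all 3. The log2 differences from estradiol were 0.08 (95% interval -0.15 to 0.30) for C1qa, 0.18 (-0.01 to 0.36) for C1qb and 0.24 (0.02 to 0.46) for C1qc, with adjusted p of 0.799, 0.359 and 0.290. With Cx3cr1, C1qc was the second gene whose groups did not overlap, 2 of 8 beside 9.05% of all genes.

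Ccr2 was 10.74, 10.53, 10.49 and 10.80 in the fulvestrant lungs, the highest group mean of the 4 at 10.64 (SD 0.15, n = 4). It exceeded estradiol alone by 0.48 (SE 0.19, limma adjusted p = 0.256) and hypoxia by 0.56 (SE 0.19, adjusted p = 0.593), in the latter case without overlap, as for 5.03% of all genes. Folr2 was 9.55, 9.43, 9.54 and 9.57, with the smallest spread of its 4 groups (SD 0.06). Cd163 (-0.27, adjusted p = 0.445) and Csf1r (0.08, adjusted p = 0.590) did not pass.

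**Figure D5:**
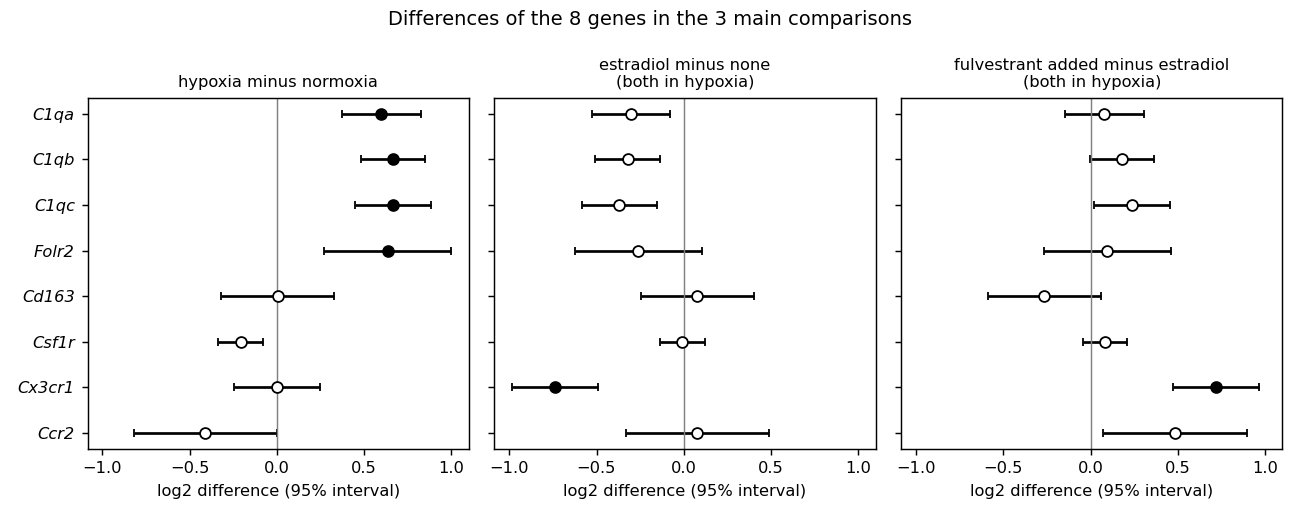
Log2 differences (horizontal axis) with 95% intervals from the limma fit for the 8 genes (vertical axis) in the 3 main comparisons; filled points passed at an adjusted p of 0.05 over all genes. C1qa, C1qb, C1qc and Folr2 passed in hypoxia against normoxia, and Cx3cr1 passed as lower with estradiol and higher when fulvestrant was added.

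Against normoxia, C1qb was higher in both the estradiol and the fulvestrant group. With estradiol C1qb was higher than in normoxia (log2 0.34, SE 0.09, limma adjusted p = 0.0333), Cx3cr1 (-0.74, adjusted p = 0.00178) and Csf1r (-0.22, SE 0.06, adjusted p = 0.0481) were lower, and the other 5 genes did not pass, C1qa (0.30, adjusted p = 0.134) and C1qc (0.30, adjusted p = 0.116) among them, beside 5.21% of all genes called, 2.87% higher and 2.34% lower. Csf1r passed in 1 and C1qb in 3 of the 8 fits without 1 array, and Cx3cr1 in all 8. Over all 17 alternatives C1qb passed in 8 (limma adjusted p up to 0.326), Csf1r in 6 and Cx3cr1 in 17. Among the lost C1qb calls was the one with normoxia replicate 4 counted as hypoxia. With fulvestrant added C1qb (0.52, SE 0.09, adjusted p = 0.00259) and C1qc (0.54, SE 0.10, adjusted p = 0.00748) were higher than in normoxia and 0 of the 8 were lower, beside 2.96% of all genes called, 1.97% higher and 0.993% lower. In this fulvestrant comparison too C1qb no longer passed with normoxia replicate 4 counted as hypoxia (limma adjusted p = 0.179), whereas C1qc did. C1qa differed by 0.38 (adjusted p = 0.0741), a difference that passed without fulvestrant replicate 2 (adjusted p = 0.0401) or without normoxia replicate 4 (0.0351). Between fulvestrant and hypoxia 0 of the 8 genes and 0 of all genes passed with limma (0% of all genes), while 1 of the 8 genes, Ccr2, and 1009 of all genes had an unadjusted p of at most 0.05.

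The order of the group means was the same for C1qa, C1qb, C1qc and Folr2: hypoxia highest, then fulvestrant, then estradiol, then normoxia. For C1qa the neighbouring means were 10.12, 9.90, 9.82 and 9.52, for C1qb 9.86, 9.72, 9.54 and 9.20, for C1qc 10.05, 9.92, 9.68 and 9.38, and for Folr2 9.69, 9.52, 9.43 and 9.05. The single neighbouring step of these that passed was estradiol against normoxia for C1qb. For Csf1r the order was normoxia (11.84), fulvestrant (11.70), hypoxia (11.63) and estradiol (11.62), and for Ccr2 fulvestrant (10.64), normoxia (10.49), estradiol (10.16) and hypoxia (10.08), with no neighbouring step that passed. For Cx3cr1 normoxia, hypoxia and fulvestrant (9.99, 9.99 and 9.97) did not differ beyond their spread and estradiol (9.25) lay below. For Cd163 the means ran from 8.51 (estradiol) to 8.24 (fulvestrant), less than the SD of 0.31 within the estradiol group.

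Among themselves, the C1q genes varied together within groups as well. Over the 16 lungs, the correlation of deviations from the group means was 0.94 for C1qa with C1qc, 0.61 for C1qb with C1qc and 0.55 for C1qa with C1qb, as a description of lungs that share their array and its normalization. Folr2 deviated most with Ccr2 (0.69). The group means accounted for 83.9% of the variance of C1qb, 81.1% of that of Cx3cr1, 78.6% for C1qc and 70.7% for C1qa, and for 18.4% of that of Cd163. These shares are not adjusted for the number of groups, and groups that do not differ also give a positive share.

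The genes most like the mean of the 3 C1q genes across the 16 lungs, by Pearson correlation, were Abhd17a (0.94), the activin subunit gene Inhba (0.93), Lypd1 (0.90), Tpi1 (0.89), Olfml2b (0.89), Dkk3 (0.88), Tgfb3 (0.88) and Dpysl5 (0.88). Within groups the correlation of deviations was 0.85 for Abhd17a, 0.59 for Inhba and 0.23 for Dpysl5, so that for Dpysl5 most of the likeness lay between groups. For Folr2 the most like genes were Cyba (0.93), a subunit of the phagocyte oxidase, the macrophage elastase Mmp12 (0.91) and the lysosomal peptidase Tpp1 (0.90). For Cx3cr1 they were Septin4 (0.90), Zc4h2 (0.90) and St6galnac3 (0.88), and for C1qb alone Abhd17a (0.92), Lypd1 (0.91) and Dpysl5 (0.91). For Csf1r they were Ceacam1 (0.88), Zfp866 (0.88) and Dennd6a (0.86), and for Ccr2 Det1 (0.82), Depdc5 (0.82) and Rbbp5 (0.80). For Cd163 they were the olfactory receptor genes Or14a258 (0.82), Or8g20 (0.78) and Or12d2 (0.77). The signals of these olfactory receptor genes were low, with group means from 3.05 to 5.08, below the array medians of 7.69 to 7.77.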

How the data were processed

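RNA of the right lung of 16 rats, its vessels flushed with saline, was labelled with biotin and hybridised to gene expression arrays, 1 per rat; every RNA integrity number was at least 9, per the labels. The deposited table holds log2 values that the authors made with RMA and Partek, per the submitters' processing notes, which give no versions or settings. Because RMA gives the probes of all arrays the same distribution before reducing them to 1 value per set, a change common to the bulk of the genes is hidden. There are no read counts behind an array signal, and the precision is limited by having 4 arrays in each group. Of 29214 probe sets 15310 had exactly 1 symbol, giving 14506 genes (the brightest probe set of each); no gene was left out as dim. Groups came from the titles. Replicate numbers follow the order of submission. No batch is given, so a batch and a group cannot be told apart.

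R 4.3.3 and limma 3.58.1 fitted 4 group means over all 16 arrays, with Benjamini-Hochberg adjustment over all genes and a threshold of 0.05; the fit was checked on simulated data. The 8 genes, the lists and the motifs were chosen with earlier results of these data known, and the estrogen response element was added after values had been seen. Named beside the 8 genes are up to 4 passing genes of each list per comparison, in order of adjusted p, some genes of these lists that did not pass (chosen after their values were seen), and the 3 genes (8 for the C1q mean) with the highest correlation to a member, placeholder symbols left out. Promoter sequences are those of RefSeq, build GRCr8; the labels name no build. Alternatives were median centring, quantile normalization again, leaving out the dimmest 25% of genes, averaging probe sets, testing all probe sets, moderation with trend and robust settings, fitting the 2 groups compared alone, counting normoxia replicate 4 as hypoxia, and leaving out arrays. Counting that array as hypoxia was not done for fulvestrant against estradiol, and arrays were left out only of the groups compared.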

Additional observations from a re-analysis of the deposited data

Results flagged for a closer look

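Of 32 sets of 4 arrays, 1 for each of the 8 genes in each group, 2 held an array far from the other 3; chance flags about 1 set in 20. C1qa in the fulvestrant lungs was 9.67 in replicate 2 and between 9.96 and 10.00 in the others, so that the gap made up 0.858 of the group's range. C1qb and C1qc were also lowest in that lung. Cx3cr1 in the estradiol lungs was 9.53 in replicate 4 and between 9.13 and 9.20 in the others, a gap of 0.845 of the range. Without that array the log2 difference of Cx3cr1 from hypoxia was -0.83 (limma adjusted p = 0.00695), and the fulvestrant difference was 0.81 (adjusted p = 0.00525).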

How the results depend on the processing

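Of the 8 genes, 4 passed in hypoxia against normoxia, 3 to 4 without 1 array, and 2 with normoxia replicate 4 counted as hypoxia. With estradiol against hypoxia 1 passed, 0 to 1 without 1 array, and 0 over all probe sets, in the fit of these groups alone, with normoxia replicate 4 counted as hypoxia and without estradiol replicates 2 and 3 together. With fulvestrant against estradiol 1 passed, 0 to 1 without 1 array, and 0 over all probe sets, in the fit of these groups alone and without estradiol replicates 2 and 3. With estradiol against normoxia 3 passed, 1 to 2 without 1 array, and 1 over all probe sets, in the fit of these groups alone and without estradiol replicates 2 and 3. There C1qb was also lost with normoxia replicate 4 counted as hypoxia. With fulvestrant against normoxia 2 passed, 2 to 3 without 1 array, and 1 with normoxia replicate 4 counted as hypoxia. Where all probe sets were tested, more tests were adjusted for; in the fits with fewer arrays fewer samples entered; otherwise the cause was not tested. Differences near 0 changed sign without passing: in hypoxia against normoxia Cx3cr1 with median centring (0.020) or without 1 array (-0.069 to 0.066) and Cd163 with quantile normalization (-0.014) or without 1 array (-0.060 to 0.11); with estradiol against hypoxia Csf1r with quantile normalization (0.0013) or without 1 array (-0.052 to 0.013), Cd163 (-0.034 to 0.19) and Ccr2 (-0.061 to 0.31); with fulvestrant against estradiol Folr2 (-0.032 to 0.32); against normoxia Cd163 with estradiol (-0.028 to 0.19) and Cx3cr1 with fulvestrant (-0.092 to 0.057); and between fulvestrant and hypoxia Cx3cr1 (-0.091 to 0.058 without 1 array, 0.021 with normoxia replicate 4 counted as hypoxia) and C1qb (0.0058 with that change). Over all genes the 817 calls of hypoxia against normoxia became 428 to 986 without 1 array and 40 with normoxia replicate 4 counted as hypoxia. The 112 with estradiol became 3 to 355 without 1 array and 0 to 161 under the other alternatives, and the 7 with fulvestrant 0 to 331 and 0 to 44. The 756 of estradiol against normoxia became 384 to 887 and 216 to 842, the 430 of fulvestrant against normoxia 238 to 374 and 100 to 562, and the 0 of fulvestrant against hypoxia stayed 0 without 1 array and became 0 to 2. Other calls of the 8 genes that changed are given beside them or number, in all, 49 lost and 7 gained. No paired analysis was possible because the labels give no replicate number shared between groups.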
